A study of Mus musculus with 10 samples.

Results

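The comparison described here is that of wild-type (WT) mouse microglia after recovery from cuprizone with WT microglia still on it. It rests on 4 of the study's 10 microarray libraries, chosen by their titles. The libraries titled WT-Cu4+2 and WT-Cu12+2 were set against WT-Cu4 and WT-Cu12, with 2 libraries in each group. Mice fed cuprizone for 4 weeks were paired with mice that had 2 further weeks on normal food (the 4-week pair), and likewise those fed for 12 weeks (the 12-week pair). Separate mice made up each library, so no animal was followed over time. All 4 libraries were sorted microglia of C57BL/6 males, on a diet with 0.2% cuprizone, and the labels give an age of 8 to 12 weeks. This can hardly be the age at collection in the 12-week pair, after 12 weeks of feeding. If feeding began at like ages, age differs between the members of each pair and between the pairs. A single library of untreated WT microglia served as control, and 4 Trem2-/- libraries of the same diets, with their own control, are set beside the WT values. The labels name no individual or pooled animals, so the spread between libraries may be technical in part.

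Microglia, the brain's own macrophages, clear debris that includes myelin. Cuprizone chelates copper and kills oligodendrocytes, the cells that make myelin. When it is withdrawn, new oligodendrocytes form and remyelinate axons while microglia remove what debris is left. Microglia around damage take on a state called disease-associated, with high expression of genes for lipid transport, phagocytosis and lysosomal function, and lower expression of their homeostatic receptors. Entry into that state depends in part on TREM2, a lipid-sensing receptor that signals through TYROBP.

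Levels are given as log2 of the deposited array intensity, and a difference of 1 on this scale is a doubling. The median of the whole table was 5.27, and levels near or below it are close to background. Of 8 microglial markers, 7 were tested and lay between 9.62 and 12.43 in the 4 libraries, all above the table median. Markers of other cells were summed by list as linear intensity. The sum of 19 neutrophil markers was 8665 in the WT control, 7648 in Cu4 and 15960 in Cu4+2, against 979.8 in Cu12 and 1081 in Cu12+2. The sum of 22 markers of border macrophages was 7628 and 6634 in the 4-week pair and 3636 and 3404 in the 12-week pair. No erythroid marker passed the filter on dim genes. The part of such cells in the results was not tested. Feeding time coincides with the run of the submitters' sample numbers, so time and run cannot be told apart, and a fall in a group can reflect fewer cells of a type or less RNA per cell.

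Few genes passed as lower in microglia taken 2 weeks after withdrawal, most of them on the disease-associated list, and their number depended on the fit. In a paired limma fit across 10792 genes, 7 fell (0.0649% of genes tested) and 0 rose (0%) at a Benjamini-Hochberg adjusted p under 0.05. At an unadjusted p under 0.05 there were 627 lower and 282 higher genes of the 10792. A share of 0.05 of unchanged genes would pass that threshold, both directions together. The 7 were Apoc1, Itgax, Cst7, Olr1, Gpnmb, Mamdc2 and Plac8. The first 5 belong to the disease-associated list, which was drawn up with results of these samples known, while Mamdc2 and Plac8 do not. Of the 7, 6 were above the control library in both cuprizone libraries and still above it in both recovery libraries.

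Apoc1 encodes an apolipoprotein of circulating and brain lipoproteins. Its level was 4.26 in the control, 10.83 in Cu4 and 7.43 in Cu4+2, and 9.79 in Cu12 and 7.94 in Cu12+2. It was 6.17-fold lower in recovery, a log2 difference of -2.63 ± 0.36 (SE, n = 2 against 2, adjusted p = 0.048). Here and below, the SE comes from a spread pooled over both genotypes. Both recovery libraries lay below both cuprizone libraries, yet more than 3 log2 units above the control.

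Itgax encodes CD11c, the integrin alpha X chain, which marks activated microglia and dendritic cells. It stood at 5.20 in the control, at 8.88 and 6.38 in the 4-week pair, and at 8.18 and 6.78 in the 12-week pair. The difference was -1.95 ± 0.24 (adjusted p = 0.038), a 3.87-fold fall with no overlap between groups. Cst7 encodes cystatin F, an inhibitor of lysosomal cysteine proteases. It went from 10.98 to 8.71 in the 4-week pair and from 9.92 to 8.31 in the 12-week pair, against 6.81 in the control, so recovery libraries were again between cuprizone and control. Its difference was -1.94 ± 0.25 (adjusted p = 0.038).

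Olr1 encodes LOX-1, a scavenger receptor for oxidised lipoproteins. It was 3.92 in the control, 7.21 and 5.39 in the 4-week pair, and 7.88 and 6.43 in the 12-week pair (difference -1.64 ± 0.20, adjusted p = 0.038). Gpnmb encodes a transmembrane glycoprotein of the lysosomes of lipid-laden macrophages. Its levels were 3.82 in the control, 8.62 and 6.83 in the 4-week pair, and 7.99 and 6.64 in the 12-week pair (-1.56 ± 0.18, adjusted p = 0.034). For both genes the groups did not overlap, and the Gpnmb levels in recovery stayed 3.01 and 2.82 above the control.

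Mamdc2 encodes a secreted matrix protein. It was dim throughout, at 3.66 in the control, 5.69 and 4.18 in the 4-week pair, and 6.08 and 4.49 in the 12-week pair (-1.56 ± 0.17, adjusted p = 0.034). Both of its recovery levels were under the table median, where differences can be compressed. It entered the test only because both WT cuprizone libraries were above that median, 1 of 10 such genes among the 10792 tested and the only one called, so a difference in this direction was built into its entry. It was also called with no filter on dim genes. Plac8 encodes a small cysteine-rich protein of several leukocyte types and is also on the monocyte list. It was 5.70 in the control, 7.28 and 6.11 in the 4-week pair, and 5.66 and 3.73 in the 12-week pair (-1.54 ± 0.20, adjusted p = 0.043). Plac8 is the 1 called gene whose groups overlapped, since Cu4+2 was above Cu12, and its fall shows only within pairs. The monocyte list had 10 of 14 members lower with a median of -0.28, and its summed intensity over 19 markers was 2827 and 2683 in the 4-week pair and 3220 and 2704 in the 12-week pair. Of the 7 genes, 5 fell further in the 4-week pair than in the 12-week pair, Mamdc2 and Plac8 being the exceptions.

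**Figure D1:**
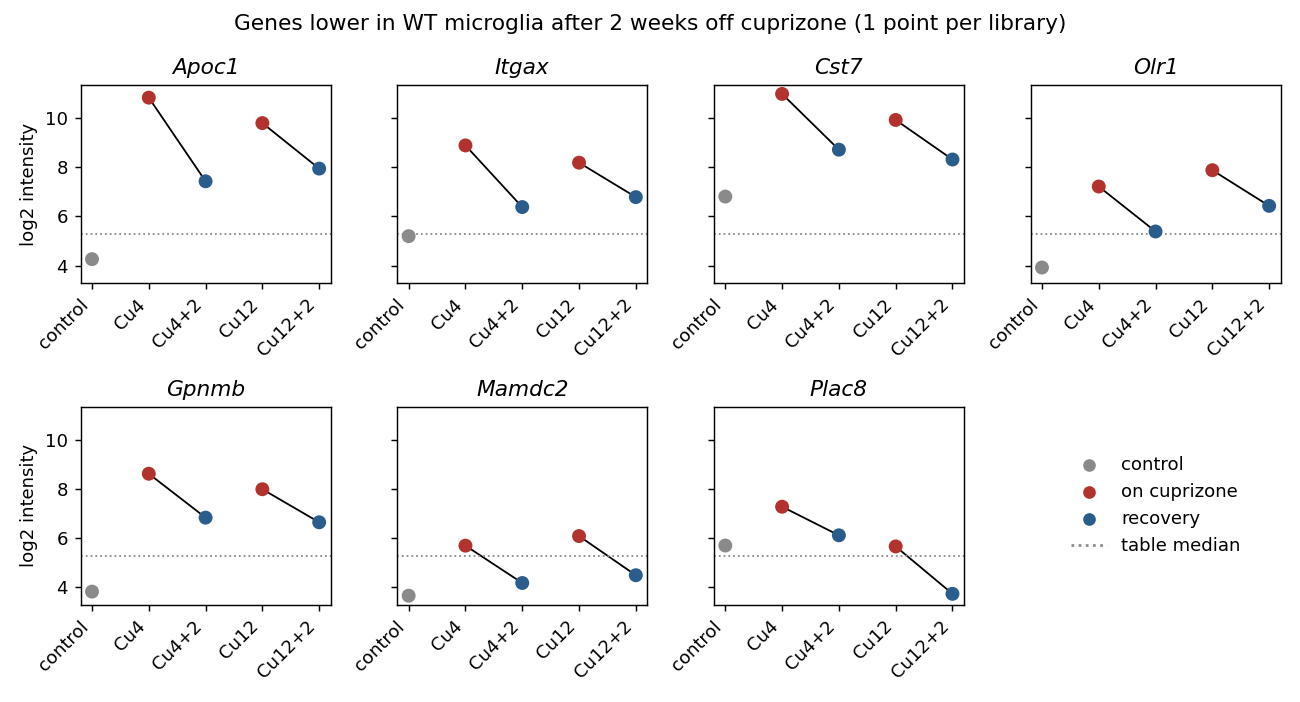
Log2 intensity (y axis) of the 7 genes called lower in the 5 WT libraries (x axis), 1 point per library, with lines joining the libraries of 1 feeding time and the table median dotted. Every line goes down, and in all but Plac8 both recovery points lie below both cuprizone points and above the control point.

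The calls depended on the fit. None of the 7 passed when feeding time was left out of the fit (smallest adjusted p = 0.443), when the Trem2-/- library titled 12 weeks was given its conflicting label of 4 weeks (smallest 0.069), or when Cu4 was left out (smallest 0.19). Leaving out Cu12 kept 2 lower calls, leaving out Cu4+2 kept 1, leaving out Cu12+2 gave 10, and leaving out any 1 of the 4 Trem2-/- cuprizone or recovery libraries, which share in the estimate of spread, gave 0. The log2 differences themselves are the same with and without the feeding-time block and were negative for all 7 genes under every alternative in which each was tested.

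Promoter sequence was available in RefSeq (GRCm38.p6) for 5 of the 7 called genes, as windows from 250 bases before to 50 after the annotated start. TGANTCA, the consensus bound by AP-1 factors, is its own reverse complement. It occurred in 4 of the 5 genes, which together have 6 windows. Of all 32851 windows 7.81% held it, a share of windows and not of genes. The pattern also occurred in 2 of 4 interferon genes described further on, Ifi209 and Ifit3b, which were not called. The 150 bases around the start are shown for those 4, with the match in capitals, because the match lies near the start in each.
Itgax: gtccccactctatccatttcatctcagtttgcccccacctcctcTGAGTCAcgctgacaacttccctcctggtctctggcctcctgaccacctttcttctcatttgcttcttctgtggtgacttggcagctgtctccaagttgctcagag
Cst7: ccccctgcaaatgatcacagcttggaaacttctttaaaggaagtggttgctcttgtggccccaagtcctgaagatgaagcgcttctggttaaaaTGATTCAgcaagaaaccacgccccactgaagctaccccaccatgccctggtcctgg
Olr1: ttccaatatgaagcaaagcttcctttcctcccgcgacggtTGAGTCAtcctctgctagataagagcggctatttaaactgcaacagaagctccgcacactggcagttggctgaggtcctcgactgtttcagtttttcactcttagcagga
Gpnmb: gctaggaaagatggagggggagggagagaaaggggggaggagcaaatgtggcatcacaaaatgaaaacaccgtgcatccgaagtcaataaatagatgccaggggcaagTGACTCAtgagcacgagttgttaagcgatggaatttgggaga
Each is written on the gene's own strand. The stretches are chr7:128129450-128129599 for Itgax, chr2:150570315-150570464 for Cst7, chr6:129507116-129507265 for Olr1 (minus strand) and chr6:49036418-49036567 for Gpnmb. The matches begin at -56 in Itgax, at -6 in Cst7, at -60 in Olr1 and at 9 in Gpnmb, counted from the start site. The match in Cst7 reads TGATTCA, in place of the classical TGACTCA or TGAGTCA. No called gene's window held GAGGAAGT, an 8-letter form of the site bound by the macrophage factor PU.1 (3.2% of windows). Other forms of that site were not searched, so this does not show that the windows lack PU.1 sites. Also absent, on either strand, were TCACGTG and TCATGTG, bound by MiT/TFE factors of lysosomal genes (3.77% of windows for each). The patterns were chosen with the called genes known, and a match is a description of the letters, not of binding.

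Within the pairs, each of 1 library against 1, 21 genes were at least 2-fold lower in both (0.195% of genes tested) and 1 was at least 2-fold higher in both (0.00927%). Besides the 7 called genes, the lower group held Lpl, Lgals3, Clec7a, Cxcr4, Ifit1, Ifit3b, Fn1, Mt2, Egln3, Vat1 and Nynrin, and also Postn, Crip1 and Myo1e, which no naming rule covered. The gene higher in both was Chil3, which myeloid cells secrete and which is on the neutrophil and monocyte lists. It was 6.36 and 7.52 in the 4-week pair and 2.69 and 3.92 in the 12-week pair, so the 4-week pair lay well above the 12-week pair in both conditions, and its mean difference of 1.20 ran from 0.51 without Cu12 to 1.88 without Cu4. Over all genes the differences of the 4-week pair and those of the 12-week pair had a correlation of 0.18, which is a description across genes that share arrays and probes.

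**Figure D2:**
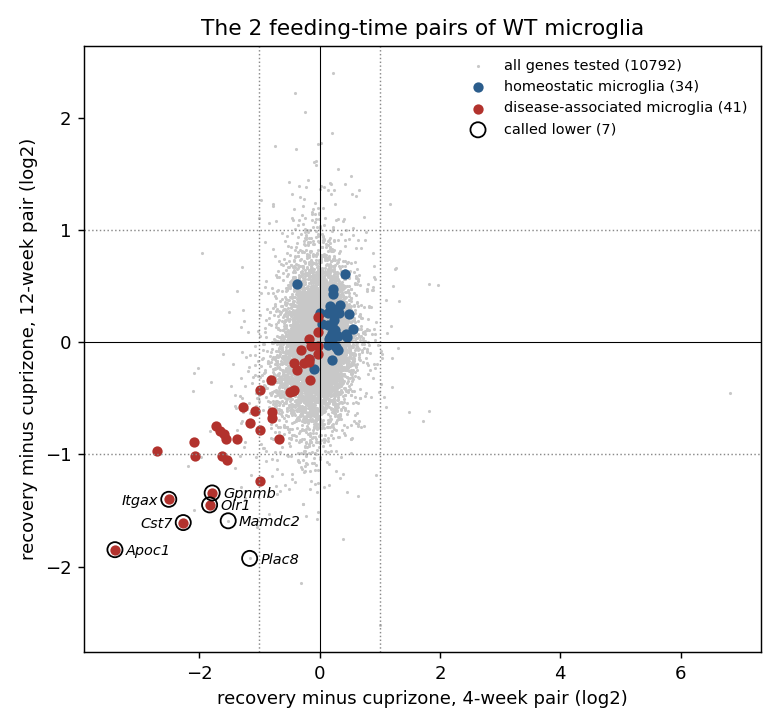
Log2 difference, recovery minus cuprizone, of each gene tested in the 4-week pair (x axis) and in the 12-week pair (y axis), with dotted lines at 2-fold and the called genes circled. Disease-associated genes run into the lower left, with Apoc1 farthest out, while homeostatic genes sit close to 0 and mostly on the higher side in both pairs.

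The disease-associated list held 44 genes, of which 41 were tested and 3, Spp1, Baiap2l2 and Dkk2, were not analysed here. Its members were drawn up with results of these samples known, so its direction is not independent evidence. Of the 41, 39 had lower values in recovery, 5 fell past the threshold and 0 rose. Their median difference was -0.77, against -0.00 over all genes tested, of which 50.3% had lower values. Both recovery libraries lay below both cuprizone libraries for 32 of the 41, compared with 14.9% of all genes. The median was -0.99 in the 4-week pair and -0.62 in the 12-week pair.

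Among lipid genes of this list, Lpl, the lipase that frees fatty acids from lipoproteins, was 9.86 and 7.79 in the 4-week pair and 9.24 and 8.23 in the 12-week pair. Its difference of -1.54 ± 0.32 did not pass (adjusted p = 0.23), although its groups did not overlap and the control was at 5.49. Ch25h, which makes 25-hydroxycholesterol, was 8.61 and 5.91, then 8.22 and 7.25 (-1.84 ± 0.44, adjusted p = 0.29), so most of its difference came from the 4-week pair. Without Cu4, Lpl was at -0.99 and Ch25h at -0.95. Fabp5, a fatty acid carrier, was 9.16 and 7.89, then 8.48 and 7.90 (-0.92 ± 0.21, adjusted p = 0.27). Apoe, the main apolipoprotein of the brain, did not pass. It was 12.9972 and 12.57 in the 4-week pair and 12.92 and 12.73 in the 12-week pair, against 10.62 in the control (-0.31 ± 0.21, adjusted p = 0.73).

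Of the receptors, Axl, which binds phosphatidylserine through bridging proteins, was 8.83 and 7.23, then 8.47 and 7.65 (-1.21 ± 0.22, adjusted p = 0.18). Clec7a, the beta-glucan receptor dectin-1, was 9.40 and 7.87, then 9.40 and 8.35 (-1.29 ± 0.26, adjusted p = 0.21). Both had lower recovery levels in each pair, and both stayed above their controls of 5.43 and 6.23. Trem2 itself did not pass, at 10.81 and 10.67, then 10.70 and 10.66, against 10.72 in the control (-0.09 ± 0.18, adjusted p = 0.93). The sign of this difference turned when Cu12 (0.01) or Cu4+2 (0.08) was left out.

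Of the secreted and lysosomal members, Igf1, a growth factor for oligodendrocytes, was 8.91 and 7.35, then 8.51 and 7.65 (-1.21 ± 0.31, adjusted p = 0.31). Mmp12, a macrophage elastase, was 8.90 and 7.25, then 8.89 and 8.10 (-1.22 ± 0.28, adjusted p = 0.27). Lgals3, the beta-galactoside-binding lectin galectin-3, was 9.35 and 7.73, then 9.18 and 8.16 (-1.31 ± 0.24, adjusted p = 0.18). Atp6v0d2, a macrophage subunit of the vacuolar proton pump, was 7.0 and 4.92, then 7.26 and 6.37 (-1.49 ± 0.29, adjusted p = 0.21). Without Cu4+2 it was at -0.87 and Igf1 at -0.79, and without Cu12+2 Atp6v0d2 was at -2.11 and passed (adjusted p = 0.0198). The lysosome and proton pump list as a whole had a median of only -0.08 with 31 of 47 members lower and 0 called. Fam20c, a kinase of secreted proteins, differed by -1.12 ± 0.19 (adjusted p = 0.13). In all of these genes each recovery library was below its paired cuprizone library.

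The control library gives a reference for the levels in recovery. In both cuprizone libraries 37 of the 41 disease-associated genes were above the control, against 3682 of all 10792 genes. In both recovery libraries 33 of the 41 still were, against 3462 of all genes. The median of the list stood 1.94 above control in Cu4 and 0.96 in Cu4+2, and 1.82 above it in Cu12 and 1.39 in Cu12+2. With 1 control library these distances have no error, and they all share that library. Since the list was drawn up with results of these samples known, its counts above the control are not independent evidence.

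Homeostatic genes, among them receptors and transcription factors, are those typical of resting microglia. This list too was chosen with earlier results of these data known, so its direction is not independent evidence. Of 34 tested, 32 had higher values in recovery and 0 passed, with a median of 0.16 (0.21 in the 4-week pair and 0.11 in the 12-week pair). Both recovery libraries were above both cuprizone libraries for 12 of the 34, compared with 11.9% of all genes. Bank1, a B-cell scaffold protein that microglia also express, was 8.88 in the control, 7.57 and 7.98 in the 4-week pair, and 6.94 and 7.54 in the 12-week pair (0.51 ± 0.24, adjusted p = 0.61). Slc2a5, the fructose transporter GLUT5, was 9.75 in the control, 8.88 and 9.36, then 8.66 and 8.91 (0.37 ± 0.16, adjusted p = 0.58). Mef2a, a transcription factor, differed by 0.34 ± 0.16 (adjusted p = 0.62). The best known receptors did not pass either, with differences of 0.13 ± 0.15 for the purinergic receptor gene P2ry12, 0.25 ± 0.17 for Tmem119, 0.15 ± 0.15 for the fractalkine receptor gene Cx3cr1 and 0.18 ± 0.15 for the lectin gene Siglech. For 25 of the 34, neither recovery library exceeded the control, against 3253 of all 10792 genes tested.

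**Figure D3:**
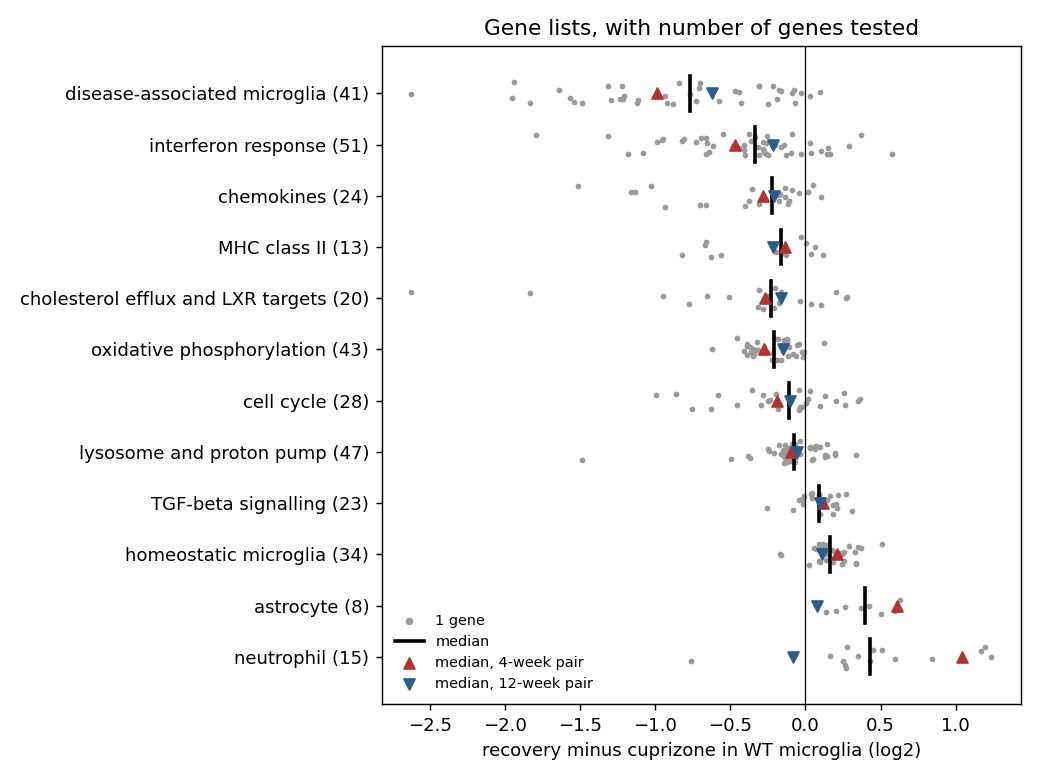
Log2 difference, recovery minus cuprizone, in WT microglia (x axis) for each tested member of 12 gene lists (y axis, with the number tested), with the median of both pairs as a bar and the median of each pair as a triangle. Disease-associated genes have the lowest median of the lists drawn and homeostatic genes a narrow spread above 0, while astrocyte and neutrophil markers are apart in the 4-week pair and near 0 in the 12-week pair.

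Of 51 interferon-response genes tested, 0 were called. Lower values were seen in 42 of the 51, with a median of -0.33 (-0.47 in the 4-week pair and -0.21 in the 12-week pair), and both recovery libraries lay below both cuprizone libraries for 20 of the 51, against 14.9% of all genes tested. Ifit3b, which encodes an antiviral RNA-binding protein of the IFIT family, was 3.88 in the control, 5.20 and 3.12 in the 4-week pair, and 5.36 and 3.86 in the 12-week pair (-1.79 ± 0.33, adjusted p = 0.18). Of these levels only that of Cu12 was above the table median of 5.27, and barely so, which puts the gene close to background. Ifit1, of the same family, was 4.35 in the control, 5.44 and 4.19, then 7.12 and 5.73 (-1.32 ± 0.27, adjusted p = 0.23). Its groups overlapped, because the whole 12-week pair was brighter, and near-identical Ifit copies can share probe signal. Ifi209, a DNA-sensing family member, differed by -0.95 ± 0.18 (adjusted p = 0.19) and Lgals3bp, a secreted glycoprotein, by -0.99 ± 0.23 (adjusted p = 0.27).

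The core of the element that interferon-activated factors bind, GAAANNGAA read on either strand, was found in 8.56% of all promoter windows, in 0 of the 5 windowed called genes and in 2 of the 4 interferon genes named above. Both stretches of 150 bases, from -200 to -51, are shown with the matches in capitals on the gene's strand, where the core reads as its reverse complement.
Ifit3b: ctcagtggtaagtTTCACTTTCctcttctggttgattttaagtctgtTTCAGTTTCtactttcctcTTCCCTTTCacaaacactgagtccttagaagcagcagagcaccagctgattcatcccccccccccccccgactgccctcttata
Ifit1: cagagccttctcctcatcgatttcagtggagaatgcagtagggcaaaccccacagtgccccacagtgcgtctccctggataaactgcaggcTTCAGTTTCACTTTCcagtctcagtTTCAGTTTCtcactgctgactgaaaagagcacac
They are chr19:34607757-34607906 and chr19:34640689-34640838. Ifit3b has 3 matches, and so has Ifit1, where the first and second overlap and are capitalised as 1 run. Ifi209 and Lgals3bp had none in their windows.

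Of 43 tested genes of mitochondrial oxidative phosphorylation, 42 had lower values and 0 were called, with a median of -0.21 (-0.27 and -0.15 in the pairs). Both recovery libraries lay below both cuprizone libraries for 18 of the 43, against 14.9% of all genes tested. Ndufa1, a subunit of respiratory complex I, was 9.70 and 8.99 in the 4-week pair and 10.05 and 9.52 in the 12-week pair, against 8.93 in the control (-0.62 ± 0.16, adjusted p = 0.31). Other members were Ndufs3 (-0.46 ± 0.16, but -0.19 as the mean of its probes), Ndufb10 (-0.41 ± 0.16) and Cox8a of cytochrome oxidase (-0.39 ± 0.16), all with an adjusted p of 0.51 or more. The same list had a median of -0.09 in Trem2-/- cells, with 34 of 43 lower.

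Chemokine and chemokine receptor genes had lower values in 21 of 24, with a median of -0.22 and 0 called. Cxcr4, the receptor for CXCL12, was 7.56 in the control, 9.70 and 8.57 in the 4-week pair, and 10.56 and 9.37 in the 12-week pair (-1.16 ± 0.31, adjusted p = 0.31). Ccl6 (-0.94 ± 0.21), Ccl9 (-0.70 ± 0.16) and Ccl22 (-1.03 ± 0.30) did not pass either, and Ccl22 was at -0.47 without Cu12 and -1.59 without Cu4. In the class II antigen presentation list, 9 of 13 were lower with a median of -0.16. H2-Aa, H2-Ab1 and Cd74, which encode the class II chains and their invariant chain, differed by -0.82 ± 0.26, -0.66 ± 0.21 and -0.67 ± 0.19, and H2-Oa, of the chaperone H2-O, by -0.63 ± 0.15. None of the 4 passed, and H2-Aa was at -0.43 without Cu12.

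In the list of cholesterol efflux and LXR target genes, which hold the response of macrophages to cholesterol load, 15 of 20 were lower with a median of -0.23. Apoc1 was its only called member, and Apoc4, an apolipoprotein of the same gene cluster, was 6.34 in the control, 7.54 and 6.36 in the 4-week pair, and 7.62 and 6.90 in the 12-week pair (-0.95 ± 0.21, adjusted p = 0.27; -0.62 without Cu4+2). Scd2, a fatty acid desaturase, differed by -0.66 ± 0.16. Cholesterol synthesis genes were evenly split, with 10 of 19 lower and a median of -0.08. Cell-cycle genes had lower values in 18 of 28 (median -0.11), among them the cyclin-dependent kinase gene Cdk1 (-0.86 ± 0.19) and Pcna, the replication clamp (-0.75 ± 0.18, but -0.39 as the mean of its probes), neither past the threshold.

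After the called genes, the smallest p among lower genes belonged to Tfb2m, a mitochondrial transcription factor (-1.10 ± 0.16, adjusted p = 0.076), Vat1 (-1.30 ± 0.20) and Nynrin (-1.28 ± 0.20), the latter both at an adjusted p of 0.10. These values rest on the brightest probe, and with the mean of a gene's probes Tfb2m was at -0.56 (adjusted p = 0.33) and Nynrin at -0.35 (adjusted p = 0.56). Rfc3, a replication clamp loader subunit (-0.93 ± 0.15), Mt2, a metal-binding metallothionein (-1.34 ± 0.22), Egln3, an oxygen-sensing prolyl hydroxylase (-1.27 ± 0.21), and Scimp, an adaptor of immune receptors (-1.30 ± 0.23), followed. Nynrin was under the table median in both recovery libraries (4.27 and 4.79), and Egln3 was under it in Cu4+2 (4.50). Scimp was at -1.72 without Cu12+2 (adjusted p = 0.035). Mt2 was 9.95 and 8.91 in the 4-week pair and 11.00 and 9.36 in the 12-week pair, against 7.99 in the control. The lists that hold Mt2 (iron, copper and oxidative stress) and Egln3 (glycolysis and hypoxia) had medians of -0.05 and -0.08, with 19 of 31 and 17 of 26 members lower and 0 called.

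Matrix and protease genes had 16 of 23 lower (median -0.19), among them Fn1, the adhesion protein fibronectin, at -1.49 ± 0.33 (adjusted p = 0.27). Trophic factors had 13 of 16 lower (median -0.11), including Vegfa, the endothelial growth factor, at -0.77 ± 0.17 (adjusted p = 0.27). Fatty acid and lipid droplet genes had 22 of 30 lower (median -0.14), phagocytic and scavenger receptors 17 of 27 (-0.08), class I antigen presentation 9 of 16 (-0.05) and inflammatory cytokines 17 of 32 (-0.04). Complement genes had 10 of 13 higher (median 0.06) although Itgax was called lower, and TGF-beta signalling, which maintains microglial identity, had 17 of 23 higher (0.09). Genes that carry the TREM2 signal were split, with 17 of 31 higher and a median of 0.02. Itgax, which is on the complement list, and Olr1, among the scavenger receptors, were the called members of the lists in this paragraph. Markers of border macrophages had 12 of 19 lower (median -0.09), of dendritic cells 7 of 12 (-0.07), of endothelial and mural cells 5 of 7 (-0.05), and of T and NK cells 4 of 6 (-0.06), with 0 called.

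On the higher side, Plpp3, a lipid phosphate phosphatase, had the smallest p (0.84 ± 0.15, adjusted p = 0.185). It was 6.21 in the control, 5.42 and 6.31 in the 4-week pair, and 5.08 and 5.87 in the 12-week pair, with no overlap. Sparcl1, a matrix glycoprotein abundant in astrocytes, was 6.83 in the control, 6.14 and 7.41, then 5.83 and 6.49 (0.96 ± 0.18, adjusted p = 0.185). Chd6, a chromatin remodeller, and Pik3r3, a regulatory subunit of PI3-kinase, differed by 0.79 ± 0.17 and 0.96 ± 0.24, though Chd6 was at 0.44 with the mean of its probes (adjusted p = 0.52). Pik3r3 was dim, at 3.66 and 4.27, then 4.00 and 5.30, with only Cu12+2 above the table median. Beside these values, all 8 tested astrocyte markers had a higher mean in recovery with 0 called, but only 4 were higher in both pairs. The list's median was 0.61 in the 4-week pair and 0.08 in the 12-week pair, and the part of these markers in the higher genes was not tested. The 4 higher in both pairs were the glutamate transporters Slc1a2 (0.60 ± 0.17) and Slc1a3 (0.42 ± 0.18), the chaperone Clu (0.50 ± 0.17) and the gap junction gene Gja1 (0.37 ± 0.16). Summed over 15 astrocyte markers, intensity was 3931 in the control, 3519 and 4791 in the 4-week pair, and 3818 and 3555 in the 12-week pair.

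The Trem2-/- libraries give the same contrast in cells without the receptor. The probe for Trem2 read 7.26 to 7.85 in them, below the 10.66 to 10.81 of the WT libraries on cuprizone or in recovery. In the limma fit, 0 genes (0%) were called between Trem2-/- recovery and Trem2-/- cuprizone, with 312 of 10792 at an unadjusted p under 0.05 and the smallest adjusted p at 0.9999. There, 11 of the 41 disease-associated genes were lower, with a median difference of 0.21 over the list. Cst7 was 7.76 and 8.38 in the 4-week pair of Trem2-/- cells and 6.66 and 8.30 in their 12-week pair, so its recovery levels were close to the 8.71 and 8.31 of WT recovery. Gpnmb was 4.57 and 5.24, then 4.52 and 4.90, and Apoc1 was 5.80 and 5.55, then 5.31 and 6.25.

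The genotype difference in the recovery response was tested as an interaction in limma, and 0 genes passed (0%). There were 555 of 10792 at an unadjusted p under 0.05, which a share of 0.05 of unchanged genes would pass. The nearest were Cst7 (WT minus Trem2-/- response -3.07 ± 0.35) and Gpnmb (-2.09 ± 0.25), both at an adjusted p of 0.056, then Mamdc2 (-1.80 ± 0.24, adjusted p = 0.098). Mamdc2 entered the test only through the WT cuprizone libraries, so a difference in this direction was built into its entry. Its Trem2-/- levels on cuprizone and in recovery, 3.82 to 4.11, were under the table median, as were those of Gpnmb, which leaves little room for a fall. Apoc1 differed by -2.97 ± 0.51 (adjusted p = 0.21) and Itgax by -1.82 ± 0.35 (adjusted p = 0.28). Plac8 differed by only -0.41 ± 0.29 (adjusted p = 0.97). It was lower in both Trem2-/- pairs too, with differences of -1.15 and -1.12. A difference between genotypes is thus not shown at this threshold for any gene.

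**Figure D4:**
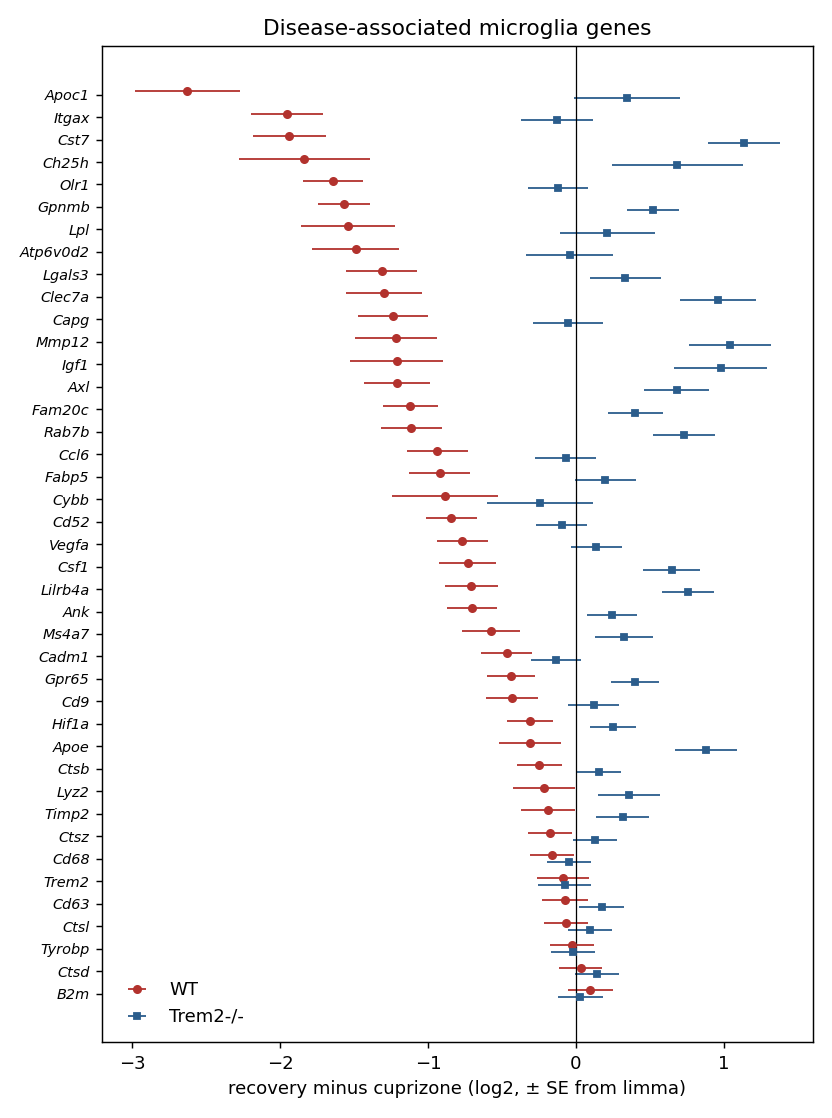
Log2 difference, recovery minus cuprizone, with its SE from limma (x axis) for the 41 tested disease-associated genes (y axis), in WT (circles) and Trem2-/- microglia (squares), ordered by the WT value. The WT values run from -2.63 for Apoc1 to 0.10 for B2m, and the Trem2-/- values gather around a median of 0.21. Each gene has the same SE in both genotypes, because the spread is pooled over them, so the bars do not show either genotype's own spread.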

How the data were processed

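Microglial RNA was labelled from 2 ng per sample per the labels' protocols. The authors deposited 1 linear intensity per probe and array, and the steps behind these intensity values were not given in the sources used here. Array medians lay between 37.6 and 39.3. Log2 was taken with no further scaling. Gene names came from the platform's annotation: of 24567 probes, 21259 named 1 gene, and the brightest probe per gene was kept (888 genes had several). Genes above the table's median in at least 2 arrays were tested (10792 of 19749).

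limma 3.58.1 in R 4.3.3 fitted all 10 arrays with 6 group means and titled feeding time as a block, leaving 3 residual degrees of freedom, with Benjamini-Hochberg adjustment over all genes tested. The script was tested on simulated data. Titles give the pairing. As a check, the 12-minus-4-week differences of WT cuprizone and WT recovery correlated at 0.58 over genes. Named genes were the called ones, up to 15 a direction by smallest p, 4 per list and 20 set genes. The members and lists were chosen with earlier results of these data known. Alternatives changed the block, 1 label, scaling, filter, probe rule, variance prior and the libraries. The number of arrays limits the precision.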

Additional observations from a re-analysis of the deposited data

Results flagged for a closer look

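Of 74 genes named in the text, 22 had both WT pairs on one side of 0 and both Trem2-/- pairs on the other. Among all 10792 genes tested, 684 were lower in both WT pairs and higher in both Trem2-/- pairs, and 583 the reverse. Many of the 74 were named for WT pairs that moved the same way or for a small WT p. The count among them therefore cannot be compared with that over all genes. The difference in response (WT minus Trem2-/-, log2) was tested as an interaction in limma, and none of the 22 passed. It was -3.07 for Cst7 and -2.09 for Gpnmb (adjusted p = 0.056 for both), and -1.80 for Mamdc2 (adjusted p = 0.098). The Trem2-/- levels of Gpnmb and Mamdc2 were under the table median. Mamdc2 also entered the test only through the WT cuprizone libraries, so this direction was built into its entry. For Clec7a the difference in response was -2.26, for Mmp12 -2.26, for Axl -1.89, for Fam20c -1.52 and for Tfb2m -1.45, each at an adjusted p of 0.21. It was -2.19 for Igf1, -1.96 for Ifit1, -1.60 for Egln3, -1.19 for Apoe, -1.08 for Cd74, -1.06 for Apoc4 and -0.90 for the growth factor gene Vegfa. On the higher side it was 1.16 for Sparcl1, 0.60 for Klf4, 0.25 for Siglech, 0.19 for Cx3cr1 and 0.17 for P2ry12, and, for the neutrophil granule genes, 1.81 for Ngp and 0.98 for Ltf.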

How the results depend on the processing

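With 2 libraries a group, the 7 lower and 0 higher calls depended on the fit. Without the feeding-time block there were 0 and 0 (295 genes at an unadjusted p under 0.05), and with the conflicting label of 4 weeks for 1 Trem2-/- library 0 and 0. The 4 WT libraries alone gave 20 lower and 1 higher, quantile normalization 3 and 0, and an intensity trend in the variance 16 and 0. Subtracted medians, no filter and the mean of probes kept all 7, and the stricter filter gave 5, of which 4 were among the 7. Leaving out 1 library gave 0 to 10 lower and 0 to 2 higher calls. The genotype difference had 0 calls, but 1 lower with medians subtracted, 2 with no filter, 2 with the stricter filter, 2 with the mean of probes and 5 with the trend. Genes lower in both pairs numbered 97 at 1.5-fold and 2 at 3-fold, and genes higher in both 17 and 0. Of 1237 differences of named genes under alternatives, 1235 kept their sign. The others were Trem2, at 0.0114 without Cu12 and 0.0751 without Cu4+2 (range -0.25 to 0.08 over libraries left out). Medians of the disease-associated, homeostatic, interferon and oxidative phosphorylation lists kept their sign throughout (-0.92 to -0.61, 0.14 to 0.22, -0.47 to -0.25 and -0.28 to -0.15).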

Other observations

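Neutrophil granule genes were lower in the 12-week pair than in the control and the 4-week pair, and highest in Cu4+2. Camp, which encodes cathelicidin, was 8.89 in the WT control, 8.50 in Cu4 and 10.47 in Cu4+2, but 4.94 in Cu12 and 5.46 in Cu12+2. Ngp, a granule protein, was 8.03, 8.03, 9.86, 3.84 and 4.35 in the same order, and Ltf, lactoferrin, 6.27, 6.58, 7.90, 4.73 and 5.10. Of 15 tested neutrophil markers 14 had a higher mean in recovery with 0 called, but only 7 were higher in both pairs, Camp, Ngp and Ltf among them. The list's median ran from 1.04 in the 4-week pair to -0.08 in the 12-week pair. Without Cu4+2 the list's median was -0.12, with Camp at 0.15, Ngp at 0.19 and Ltf at 0.12. Without Cu12+2 Camp was at 2.33 (limma adjusted p = 0.035).

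Ttr encodes transthyretin, which the choroid plexus secretes in bulk. It was chosen after its values were seen. It read 4.14 in Cu4 and 10.95 in Cu4+2, against 6.15 in the control, 5.53 in Cu12 and 5.07 in Cu12+2. In Trem2-/- cells it was 9.58 in Cu4 and 9.87 in Cu4+2, but 5.70 and 6.88 in the 12-week pair. The difference in WT was 3.18 ± 1.22 (limma adjusted p = 0.54), 0.36 without Cu4, 1.15 without Cu4+2 and 6.00 without Cu12 (adjusted p = 0.0495).

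Immediate early genes, which sorting can induce, had higher values in 23 of 31 with 0 called, at a median of 0.29 in the 4-week pair and 0.02 in the 12-week pair. Fosb was 10.67 and 11.38 in the 4-week pair and 11.25 and 11.23 in the 12-week pair, and Klf4 7.58 and 8.46, then 8.25 and 8.32. Egr1, which is also on the homeostatic list, was 11.56 and 12.11, then 11.78 and 11.90. Its difference of 0.34 ± 0.16 did not pass (adjusted p = 0.62).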
